A study of Homo sapiens with 4 samples.

Results

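U6 is the small nuclear RNA (snRNA) at the catalytic centre of the spliceosome, and the RNU6 symbols name its genes and its many pseudogenes. The members described here are the 79 genes whose array probe sets carry a single platform symbol that starts with RNU6-, RNU6V or RNU6ATAC, out of 22465 genes measured. A gene with several probe sets is represented by the one with the highest mean level. Of the 79, 74 are U6 names and 5 belong to the RNU6ATAC family, the U6 counterpart of the minor spliceosome. The members were chosen by name, with earlier results of these data known.

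The arrays measured total RNA of the HCT116 line, established from a human colon cancer and grown in MEM medium. There were 2 arrays of cells transiently transfected with PRSS8 expression plasmids and 2 of cells that received the vector control. All 4 cultures were therefore transfected with plasmid DNA, and the labels call replicates 1 and 2 of each group biological. How long after transfection the cells were collected is not stated in the labels. PRSS8 encodes prostasin, a membrane-anchored serine protease, and its own probe set read 18.55 and 18.07 on the PRSS8 arrays, against 10.45 and 11.18 on the control arrays (log2, replicates 1 and 2). The 6 epithelial markers (KRT8, KRT18, KRT19, EPCAM, CDH1 and CLDN4) had mean levels of 8.37 to 14.36, while PTPRC, CD3E, PECAM1, COL1A1 and COL1A2, which mark other cell types, lay between 3.26 and 3.97. CD68, a lysosomal gene used as a macrophage marker, read 8.47 and 9.44 with PRSS8 and 7.23 and 8.11 in control. Across all genes the arrays of the same replicate number were the most alike. In such bulk RNA, fewer cells that make a transcript and less of it per cell cannot be told apart.

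U6 is made by RNA polymerase III from a promoter that lies upstream of the gene, unlike the other major spliceosomal snRNAs, which polymerase II makes. The La protein (SSB) and then the LSM2 to LSM8 ring bind its 3′ end. U6 enters the spliceosome base-paired to U4, is released from it, and then pairs with U2 and with the 5′ splice site, where it holds the metal ions that catalyse splicing. U6atac does the same for the rare introns of the minor spliceosome, with U4atac as its partner. The human genome holds many retroposed U6 copies, most of them regarded as pseudogenes, and near-identical copies cannot be told apart by short array probes.

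How far the probe sets separate copies can be seen in the values themselves. RNU6-1, RNU6-11 and RNU6-37 had identical values on all 4 arrays (to 5 decimals), and so did RNU6-12, RNU6-13 and RNU6-32, and RNU6-17 and RNU6-18. The values of RNU6-1 stood in 10 probe sets in all, 6 of them listed under RNU6-1 together with RNU6-6P and therefore outside the member list. The 79 members thus held 74 distinct sets of values. Of the members 10.1% shared their values with another member, and of all genes 0.178% shared theirs with another gene. Counts of members below are given with and without such repeats where the repeats matter.

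All 79 symbols had a match in RefSeq's gene table (GRCh38.p14), 42 through the Entrez identifier, 6 through the symbol and 31 through an older symbol. RefSeq classes 76 of the matches as pseudogenes and 3 as snRNA genes: RNU6-1, RNU6-7 and RNU6ATAC. For 4 members (RNU6-1, RNU6-3, RNU6-4 and RNU6-7) the chromosome in the probe set's identifier was not the one RefSeq gives, whereas over 20158 genes with an Entrez match both sources named the same chromosome for 99.8%. Which locus those 4 names stand for on the array is thus not settled, and RNU6ATAC is the only member classed as an snRNA gene whose chromosome matched. RefSeq lists 1325 symbols of these forms, so the members are a small sample of them. The sample is uneven: 40.5% of the members, but 2.57% of all genes, had chromosome 13 in their probe set identifier, including all 31 members numbered above 50.

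The level of RNU6 probe sets spanned nearly the whole scale of the array. Mean levels over the 4 arrays ran from 3.08 (RNU6-78P) to 17.57 (RNU6-15P), with a median of 8.14, against 4.21 over all genes (log2). Since the rule kept the brightest probe set of a gene, levels are a description only, and levels of different probe sets depend on their probes. In bands drawn after the values were seen, 24 members had a mean level of at least 12, 25 lay from 6 to 12, and 30 lay under 6. No member reached the highest value on any array, which was 19.93 on both replicate 1 arrays, and 19.46 with PRSS8 and 19.44 in control on the replicate 2 arrays.

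**Figure D1:**
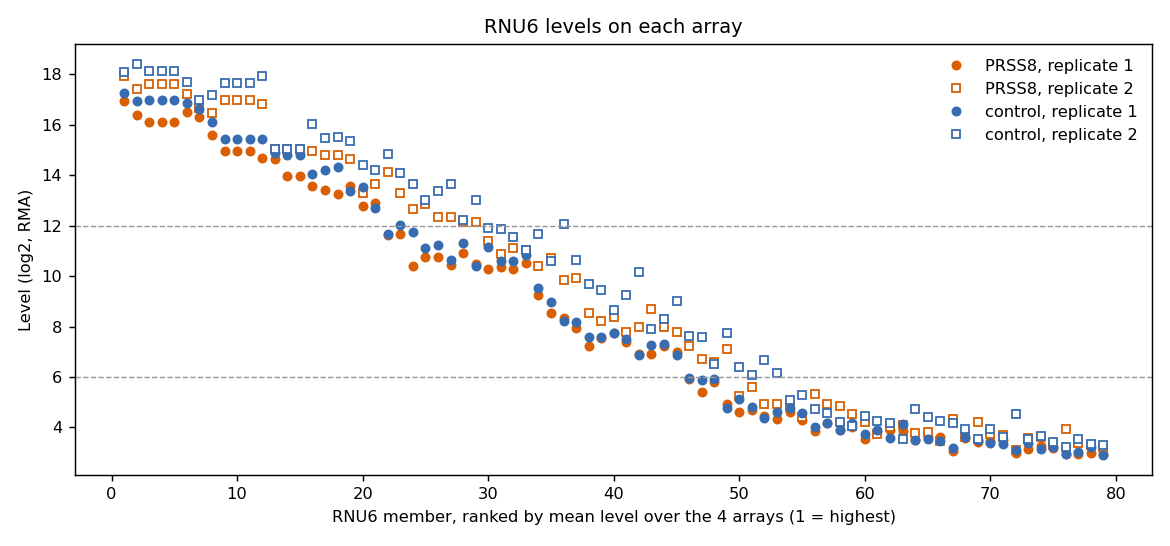
Level (log2, RMA) of each of the 79 members on each array, with members ranked by mean level; orange marks PRSS8 and blue control, filled circles replicate 1 and open squares replicate 2, and dashed lines mark levels 6 and 12. Mean levels run from 17.57 down to 3.08, and the replicate 2 squares lie above the replicate 1 circles for nearly all members.

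RNU6-15P, the brightest member, read 16.94 and 17.93 on the PRSS8 arrays and 17.28 and 18.11 on the control arrays (replicates 1 and 2). RNU6-33P read 16.38 and 17.41 with PRSS8 and 16.93 and 18.43 in control. RNU6-1, with the values it shares with RNU6-11 and RNU6-37, read 16.10 and 17.62 with PRSS8 and 16.97 and 18.12 in control. In all 3 sets of values the PRSS8 array was the lower within each replicate number, and the groups overlapped because both replicate 2 arrays were above both replicate 1 arrays. RNU6-36P, RNU6-39P, RNU6-16P, RNU6-12 and RNU6-13, the other members among the 10 brightest, were also lower with PRSS8 in both numbers. RNU6-39P varied least among these 10, at 16.29 and 16.66 with PRSS8 and 16.62 and 16.99 in control.

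Most members stood lower in PRSS8 cells than in control cells of the same replicate number. The difference, PRSS8 minus control, was taken within replicate 1 (pair 1) and within replicate 2 (pair 2). It was negative in both pairs for 48 of 79 members (60.8%), where 24.5% of all genes were lower in both pairs. It was negative in pair 1 for 60 members (75.9%; 50.4% of all genes) and in pair 2 for 64 (81.0%; 48% of all genes). It was positive in both pairs for 3 members (3.80%), where 26% of all genes were. With each distinct set of values counted once, 43 of 74 were lower in both pairs and 3 higher. The median difference over the members was −0.21 in pair 1 and −0.50 in pair 2, against 0.00 and 0.01 over all genes. In pair 2, 52 members had the more negative difference of the 2 pairs. After quantile normalization, median centring or cyclic loess, both medians were still negative (−0.22 to −0.16 in pair 1, −0.65 to −0.43 in pair 2) and 47 to 52 members were lower in both pairs. Of all genes, 17.6% to 22.7% were lower in both pairs under these normalizations.

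**Figure D2:**
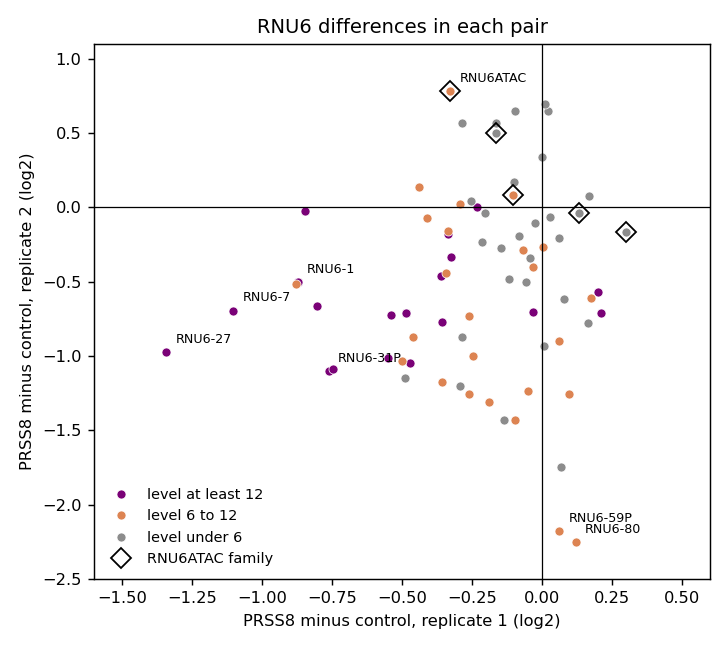
Difference PRSS8 minus control (log2) of each member in pair 1 (x axis) and pair 2 (y axis), coloured by mean level, with the RNU6ATAC family ringed by diamonds. Both differences are negative for 48 of the 79 members and positive for 3, and the 5 RNU6ATAC family members are in neither set.

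No member passed the test across all genes. In limma, fitted over 22465 genes without a term for the replicate number, 0 genes passed an adjusted p under 0.05, higher or lower (0% each), and every member had an adjusted p of 1 after rounding. The unadjusted p was under 0.05 for 42 genes, 17 higher (0.0757%) and 25 lower (0.111%), 0 of them members, and the smallest among the members was 0.106 (RNU6-70). With 2 arrays a group, the smallest p of an exact permutation test (two-sided) is 0.333. The group means carry the difference between the replicate numbers, and the median difference of group means, −0.37, turned to 0.08 without PRSS8 replicate 1 and to 0.20 without control replicate 2. It was −0.96 without control replicate 1 and −0.86 without PRSS8 replicate 2. The comparison within the replicate numbers rests on 1 array of each group per pair.

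Brighter members were lower in both pairs more often than dim ones. At levels of at least 12, 21 of 24 members (87.5%) were lower with PRSS8 in both pairs, where 16.2% of all genes at that level were. Each distinct set of values counted once, this was 16 of 19. At levels from 6 to 12 it was 15 of 25 (60%), against 14.9% of all genes there, and under 6 it was 12 of 30 (40%), against 27.8%. The median differences in pairs 1 and 2 were −0.51 and −0.70 in the top band, −0.25 and −0.73 in the middle band, and −0.07 and −0.18 in the bottom band. Among all genes of at least 12 the medians were −0.07 and 0.24, and from 6 to 12 they were −0.02 and 0.21. Across the members, the mean level and the difference had a Pearson's r of −0.63 in pair 1 and −0.25 in pair 2 (n = 79), a description over members that share probes and arrays. The differences of the 2 pairs were hardly related to each other across members (r = 0.06).

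**Figure D3:**
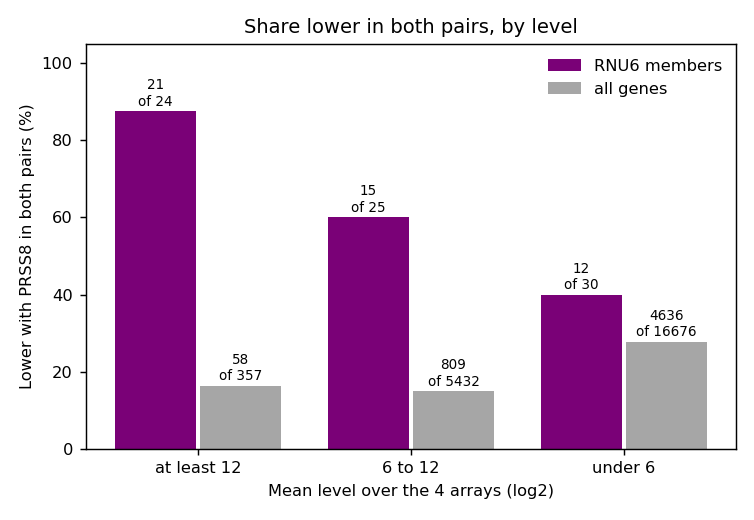
Share of members (purple) and of all genes (grey) that were lower with PRSS8 in both pairs, by mean level over the 4 arrays, with counts above the bars. The members' share is 87.5%, 60% and 40% from the brightest band to the dimmest, and that of all genes 16.2%, 14.9% and 27.8%.

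The 3 top-band exceptions were near 0 or mixed. RNU6-14P read 14.65 and 15.03 with PRSS8 and 14.88 and 15.03 in control, a difference of −0.23 in pair 1 and of 0.00 in pair 2. RNU6-42P and RNU6-30P were higher with PRSS8 in pair 1 (0.21 and 0.20) and lower in pair 2 (−0.71 and −0.57). All 3 are pseudogenes in RefSeq, as are 76 of the 79 members.

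The other bright members without a final P in their platform symbol had the same sign in both pairs. The missing P does not mark a gene here. Those named in this paragraph carry older symbols, and RefSeq classes their matches as pseudogenes with symbols that end in P. RNU6-17, whose values RNU6-18 shares, read 13.96 and 15.02 with PRSS8 and 14.81 and 15.05 in control, and so was close to control in pair 2. RNU6-12, RNU6-13 and RNU6-32 together read 14.95 and 16.97 with PRSS8 and 15.44 and 17.68 in control. RNU6-47 read 13.59 and 14.97 with PRSS8 and 14.06 and 16.02 in control. In these, as in RNU6-24 (−0.03 and −0.70) and RNU6-4 (−0.36 and −0.77), each PRSS8 array lay below the control array of its number, by little in some pairs.

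Several members of the middle band were lower by more in pair 2. RNU6-20 (−0.50 and −1.04), RNU6-43 (−0.26 and −1.26), RNU6-49 (−0.10 and −1.43) and RNU6-22 (−0.03 and −0.40) were lower with PRSS8 in both pairs and more so in pair 2. RNU6-3 was lower by more in pair 1 (−0.41 and −0.07). RNU6-44 was lower in pair 1 and higher in pair 2, at 8.53 and 10.72 with PRSS8 and 8.97 and 10.59 in control.

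Differences of at least 1.5-fold in both pairs were found for 5 members (6.33%), all lower with PRSS8 and all in the top band, where 0.156% of all genes and 3.64% of genes at that level were lower by as much. At levels from 6 to 12 it was 0 members, and 0.258% of all genes. RNU6-27 had the largest mean difference, with 10.42 and 12.66 on the PRSS8 arrays and 11.76 and 13.64 on the control arrays, or −1.34 in pair 1 and −0.97 in pair 2. RNU6-31P read 14.68 and 16.84 with PRSS8 and 15.44 and 17.95 in control (−0.76 and −1.10). RNU6-34P read 12.77 and 13.31 with PRSS8 and 13.52 and 14.40 in control (−0.75 and −1.09). RNU6-34P is the only one of the 5 whose groups did not overlap, by 0.21 between the higher PRSS8 and the lower control array. RNU6-7 read 13.24 and 14.81 with PRSS8 and 14.34 and 15.50 in control (−1.10 and −0.69). RNU6-29 read 13.42 and 14.82 with PRSS8 and 14.22 and 15.48 in control (−0.80 and −0.66). In limma the differences of group means of these 5 were −1.16 to −0.73, with SEs from 0.69 to 1.18. That of RNU6-31P turned to 0.15 without PRSS8 replicate 1 and to 0.32 without control replicate 2.

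Without regard to pairs, the groups hardly separated. Both PRSS8 arrays lay below both control arrays for 4 members, where 5.56% of all genes did so, and above them for 0 members, where 5.53% of all genes did. The 4 were RNU6-34P, RNU6-70, RNU6-83P and RNU6-52P, and the last 3 had mean levels of 3.43 to 4.64. No member was at least 1.5-fold apart in this sense, below (0.0356% of all genes) or above (0.0712%). In the lower direction the members' share, 5.06%, was near that of all genes. In either direction together it was 5.06% of members and 11.1% of all genes.

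The members differed more between replicate numbers than between PRSS8 and control. In 75 of 79 members (94.9%) the replicate 2 array was above the replicate 1 array in both groups, as it was in 58.6% of all genes. This was not particular to RNU6. It held for 523 of 568 other small RNAs of polymerase III (92.1%). Of 134 other snRNAs it held for 91 (67.9%), among them 30 of 31 U5 copies. The members' median difference, replicate 2 minus replicate 1, was 0.88 on the PRSS8 arrays and 1.07 on the control arrays, against 0.12 and 0.13 over all genes. Those all-gene medians moved with the scaling, to −0.12 and −0.19 after median centring, while the members' medians were 0.64 and 0.75 there. In the middle band the contrast was wider, at 1.24 and 1.73 for the members and −0.38 and −0.57 for all genes of that level. These too moved with the scaling. After quantile normalization they were 1.37 and 2.14 for the members and −0.11 and −0.10 for all genes. After median centring they were 0.99 and 1.41, and −0.62 and −0.89. Without further normalization, other polymerase III RNAs with a level of at least 6 had medians of 1.37 and 1.24, and other such snRNAs 1.53 and 1.37. The control array of replicate 2 was the highest of the 4 for 64 members (81.0%; 36.1% of all genes), and the PRSS8 array of replicate 1 the lowest for 58 (73.4%; 32.9% of all genes). For 44 members the order from low to high was PRSS8 replicate 1, control replicate 1, PRSS8 replicate 2 and control replicate 2 (55.7%; 13.4% of all genes). The labels do not say what arrays of one replicate number share, and its part in the RNU6 differences was not tested.

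The 32 U6 members with chromosome 13 in their probe set identifier had a median level of 3.91, against 13.22 for the 42 other U6 members. Of the 32, 20 (62.5%) were lower with PRSS8 in pair 1, 24 (75%) in pair 2 and 14 (43.8%) in both. Their medians were −0.07 and −0.49 in pairs 1 and 2. Of the 7 with a level of at least 6 (RNU6-60, RNU6-80, RNU6-38, RNU6-73, RNU6-59P, RNU6-76P and RNU6-65), all were lower with PRSS8 in pair 2 but 3 in pair 1, with medians of 0.06 in pair 1 and −1.25 in pair 2. Of all genes with such a level, 54% were lower in pair 1 and 22.7% in pair 2. Of all genes under 6, where most of the 32 lay, 49.1% were lower in pair 1, 56.8% in pair 2 and 27.8% in both. RNU6-80, whose pairs differed most, read 8.35 and 9.83 with PRSS8 and 8.23 and 12.08 in control. RNU6-59P read 6.92 and 7.98 with PRSS8 and 6.86 and 10.16 in control. In both, the control array of replicate 2 stood above the other 3, and the differences were 0.12 and 0.06 in pair 1 and −2.25 and −2.18 in pair 2. Their pair 2 differences, 4.76-fold and 4.52-fold lower with PRSS8, rest on that array. RNU6-60 (−0.19 and −1.31), RNU6-38 (−0.26 and −0.73) and RNU6-73 (−0.36 and −1.18) were the 3 lower in both pairs, and RNU6-65 was 0.17 and −0.61. Over the 79 members, those with a larger replicate difference in control had the more negative difference in pair 2 (r = −0.76), 2 measures that share the control array of replicate 2.

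Dim members near the bottom of the scale were the ones that stood higher with PRSS8 in both pairs. RNU6-56P read 2.95 and 3.93 with PRSS8 and 2.94 and 3.24 in control, RNU6-50 read 3.91 and 4.86 with PRSS8 and 3.89 and 4.21 in control, and RNU6-64P read 3.51 and 3.70 with PRSS8 and 3.35 and 3.63 in control. In pair 1 their differences were only 0.01, 0.02 and 0.17. Of the dim members lower in both pairs, RNU6-77 (−0.49 and −1.15) and RNU6-52P (−0.14 and −1.43) had the largest negative mean differences. RNU6-54 (−0.12 and −0.48), RNU6-48 (−0.15 and −0.27) and RNU6-70 (−0.29 and −0.87) were lower in both pairs too, while RNU6-61 (0.07 and −1.75), RNU6-62 (0.16 and −0.78) and RNU6-74 (−0.10 and 0.17) were mixed. RNU6V, a U6 variant pseudogene at the lower end of the middle band, read 5.41 and 6.69 with PRSS8 and 5.87 and 7.57 in control. Detection could not be computed, so whether the dimmest members were above background is unknown.

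The RNU6ATAC family was mixed in sign. RNU6ATAC, which replaces U6 in the minor spliceosome, read 6.93 and 8.70 on the PRSS8 arrays and 7.26 and 7.92 on the control arrays. Its difference was −0.33 in pair 1 and 0.78 in pair 2, so that the pairs opposed each other. The pseudogenes RNU6ATAC2P, RNU6ATAC3P, RNU6ATAC4P and RNU6ATAC5P were mixed as well, with pair 1 differences from −0.17 to 0.30 and pair 2 differences from −0.17 to 0.50. Of the 5, 0 were lower and 0 higher in both pairs, though 1 was higher in both after median centring or cyclic loess, and 1 lower and 1 higher after quantile normalization. Other RNAs of the minor spliceosome were RNU11, at 13.70 and 15.08 with PRSS8 and 13.78 and 14.07 in control, and RNU12, at 7.62 and 8.38 with PRSS8 and 7.39 and 7.36 in control. Both stood about 1 log2 unit higher with PRSS8 in pair 2 (1.01 and 1.02), with −0.08 and 0.24 in pair 1. RNU4ATAC, the U4atac partner of U6atac, read 19.37 and 19.41 with PRSS8 and 19.54 and 19.39 in control. On the replicate 2 arrays this was next to the top of the scale, where a higher level could hardly be read. The replicate 1 arrays reached 19.93. The difference between RNU6ATAC and U6 members was not tested.

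The other snRNAs were compared in the same way. Of 134 genes and pseudogenes of U1, U2, U4, U5, U7, U11, U12 and U4atac, 36 (26.9%) were lower in both pairs and 29 higher, with medians of −0.07 and 0.04 in pairs 1 and 2. Of these 134, 68 are U7 copies, which act outside the spliceosome and lay at levels under 6, and 22 of the 68 were lower in both pairs. Among the 30 of the 134 with a level of at least 6, 6 were lower in both pairs (20%) and 4 higher. After quantile normalization or cyclic loess it was 10 and 3. The all-gene counts lower in both pairs rose as well. At levels from 6 to 12 they went from 809 to 1249 and 1046 of 5432 genes, in that order of normalization. At 12 or more they went from 58 to 90 and 89 of 357. U4, which carries U6 into the spliceosome, read 17.49 and 18.08 with PRSS8 and 17.73 and 17.86 in control at RNU4-2, a gene picked here after its values were seen. U5 pairs with exon ends, and its pseudogene RNU5E-2P had the most negative mean difference of the list, at 12.48 and 16.54 with PRSS8 and 13.39 and 18.56 in control. RNU7-28P, a copy of the U7 RNA of histone mRNA processing, read 3.16 and 2.98 with PRSS8 and 3.80 and 4.03 in control. The largest positive mean differences were those of RNU12-2P (0.31 and 1.02) and RNU12. These 30 brighter snRNAs were also higher in replicate 2, by medians of 1.53 on the PRSS8 arrays and 1.37 on the control arrays. Over all 134 these medians were 0.32 and 0.24, and for the 68 U7 copies 0.16 and 0.06.

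**Figure D4:**
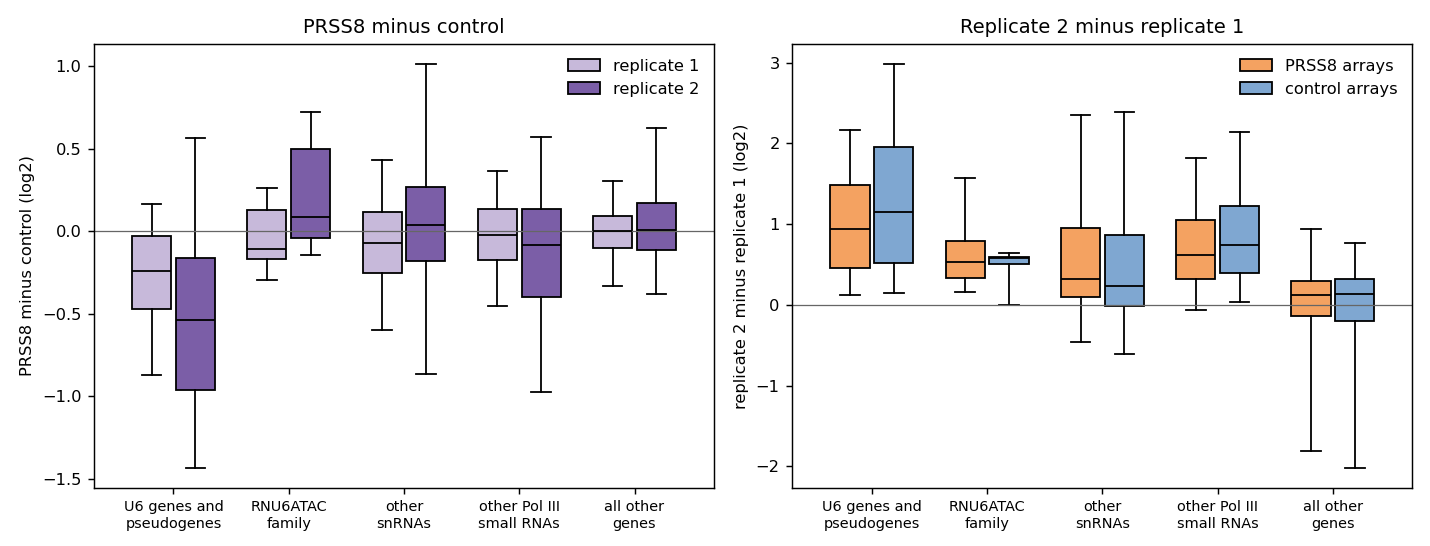
Left, difference PRSS8 minus control (log2) in each pair, and right, replicate 2 minus replicate 1 (log2) in each group, for 74 U6 members, 5 RNU6ATAC family members, 134 other snRNAs, 568 other polymerase III RNAs and the 22386 genes that are not members; boxes span the quartiles with the median, whiskers the 5th to 95th percentile. U6 boxes lie below 0 on the left (medians −0.24 and −0.54), and on the right their medians are 0.93 on the PRSS8 arrays and 1.15 on the control arrays.

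Of the other small RNAs made by polymerase III a smaller share was lower in both pairs. Of 568 (5S, Y, vault, 7SK, 7SL, RMRP and RPPH1 genes and pseudogenes), 171 were lower in both pairs (30.1%) and 104 higher (18.3%), with medians of −0.02 and −0.08. Of all genes 24.5% were lower in both pairs and 26% higher. At levels of at least 6, 26 of 114 of these RNAs were lower in both pairs (22.8%). Of all genes it was 14.9% at levels from 6 to 12 and 16.2% at 12 or more. After quantile normalization 42 of the 114 were lower in both pairs. Of all genes it was then 1249 of 5432 at levels from 6 to 12 and 90 of 357 at 12 or more. Among those of the 568 with 1 sign in both pairs, the most negative mean differences were those of the 5S pseudogene RNA5SP510 (−0.57 and −1.15) and the Y RNA pseudogene RNY4P25 (−0.28 and −1.43). The most positive were those of the 5S pseudogenes RNA5SP180 (0.38 and 0.83) and RNA5SP193 (0.16 and 1.04). RN7SK and RMRP, whose promoters are of the U6 kind, stood at or next to the top of the scale on every array, where a higher level could not be read. RPPH1, the RNA of RNase P with a promoter of the same kind, read 7.31 and 7.57 with PRSS8 and 7.12 and 7.91 in control. Over all 568 the medians of replicate 2 minus replicate 1 were 0.62 on the PRSS8 arrays and 0.74 on the control arrays.

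Most mRNAs of proteins that make, bind or use U6 were not lower with PRSS8 in both pairs, with shares that differed by list. Of all genes at levels from 6 to 12, 14.9% were lower in both pairs and 38.3% higher. Under 6, where part of the listed genes lay, 27.8% of all genes were lower in both pairs and 21.9% higher. In no list did a gene pass the limma test. Of 15 genes for U6 binding and processing, 1 was lower in both pairs and 7 higher. LSM8 and LSM6, subunits of the ring on the U6 3′ end, differed by 0.22 and 0.24 in pair 1 and by 0.37 and 0.24 in pair 2. MEPCE, the enzyme that caps 7SK RNA, differed by −0.10 and −0.06. Of 28 genes of polymerase III and the snRNA promoter factors, 2 were lower in both pairs and 15 higher. GTF3A (0.12 and 0.86) and POLR3C (0.14 and 0.72) had the largest positive mean differences of 1 sign in both pairs, and POLR3GL (−0.06 and −0.81) and BDP1 (−0.21 and −0.19), a subunit of the initiation factor TFIIIB, the negative ones. In pair 2 the median over all genes of levels 6 to 12 was itself 0.21.

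Among 16 genes of the U4/U6.U5 tri-snRNP, the particle that delivers U6, 10 were lower in pair 1 and 3 in pair 2, with 1 lower in both pairs and 4 higher. PRPF4, a protein of the U4/U6 particle, read 9.57 and 9.44 with PRSS8 and 9.47 and 8.14 in control. SNRNP27 differed by 0.46 and 0.16, and the helicase DDX23 by −0.05 and −0.03. Of 12 genes for proteins of the active spliceosome, 9 were lower in pair 1 and 3 in pair 2. In both pairs 3 of the 12 were lower (25%) and 3 higher, or 6 and 2 after quantile normalization or cyclic loess. Of 5432 genes at levels from 6 to 12, those lower in both pairs rose as well, from 809 to 1249 and 1046. Among the 12, CWC22 (0.03 and 0.57), BUD31 (0.20 and 0.07), PRPF18 (−0.20 and −0.10) and CWC25 (−0.07 and −0.16) had the largest mean differences of 1 sign in both pairs. Of 7 genes for minor spliceosome proteins, 2 were lower in both pairs (28.6%) and 3 higher. ZMAT5 differed by 0.19 and 0.66 and ZCRB1 by 0.27 and 0.11, and PDCD7 (−0.02 and −0.17) and SNRNP25 (−0.01 and −0.11) were the lower ones.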

How the data were processed

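Total RNA of 4 cultures was hybridised to Affymetrix arrays. The deposited values are log2 levels per probe set, made by the authors with Affymetrix Expression Console 1.3.1 and RMA, per the submitters' processing notes. For joint normalization and genome build, nothing is stated in the sources used here. Array medians differed. Of 70523 probe sets, 67528 transcript clusters were kept and 23781 had 1 symbol (1543 had several), which gave 22465 genes after symbols were updated through the Entrez identifier. Members kept the platform's symbol. The gene-level comparison used limma 3.58.1 in R 4.3.3 (lmFit, eBayes with an intensity trend, Benjamini-Hochberg adjustment over all genes, threshold 0.05), with 2 residual degrees of freedom and no replicate block. The code was tested on simulated data with noise drawn separately for each array. The simulation thus held no difference shared by arrays of the same replicate number. The number of arrays limits the precision, and p-values measure the spread between the 2 arrays of a group.

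Members, lists and tests were chosen with earlier results of these data known. Named were PRSS8, members with no final P in their symbol, the 10 brightest members, the 6 largest differences of each sign with 1 sign in both pairs, members with separated groups, the member with the widest gap between pairs, and up to 2 genes of each sign per list. Listed genes with no match are not analysed here. No sequence is shown because the sequence tables used here hold no RNU6 entry. Alternatives were the replicate block, other variance models, normalizations, filters, probe set choices and leaving out each array.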

Additional observations from a re-analysis of the deposited data

How the results depend on the processing

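Calls across all genes were 0 under the block, the plain variance model, 3 further normalizations, the filter and other probe set choices, and 0 to 61 with an array left out (61 without control replicate 1, 8 without control replicate 2). Replicate numbers are shared by both groups, and deviations of same-numbered arrays correlated at r = 0.91 over 22465 genes. With the replicate block 0 genes passed as well. In that limma fit the unadjusted p was under 0.05 for 19 members (24.1%), all lower, or for 17 of the 74 distinct sets of values. Of all genes it was under 0.05 for 1173 (5.22%), 526 of them lower (2.34% of all genes). The median RNU6 difference of −0.37 was −0.58 with dim genes left out and ran from −0.96 to 0.20 with an array left out. Members higher in both pairs were 5 under each further normalization and 1 after the filter, against 3. Members with groups 1.5-fold apart below control were 0, but 1 after quantile normalization, 4 with no fold limit, and 0 to 36 with an array left out. Above control they were 0 to 4. The 36 came without control replicate 1. That leaves only control replicate 2, the highest array for 81.0% of members and 36.1% of all genes. Such counts over all genes are not given with an array left out. Whether the 36 is particular to the members was thus not tested. The median of replicate 2 minus replicate 1 was 0.69 after median centring and 1.29 after the filter, and the median level 11.18 after the filter. Chosen after seeing the data, the count lower in both pairs was 21, 15 and 12 in the 3 level bands and 5 at a fold of 1.5. A fit that lacks 1 array sets unequal replicate numbers against each other; the cause of the other shifts was not tested. Of 23 members recomputed singly, 14 turned sign when 1 array was left out: 7 without PRSS8 replicate 1, 7 without control replicate 2, 3 without PRSS8 replicate 2 and 2 without control replicate 1. RNU6-1, for example, came to 0.08 in the fit that lacked PRSS8 replicate 1, and RNU6-12 to 0.52 and RNU6-80 to 0.86 in the one that lacked control replicate 2. None turned under the other normalizations, the filter or the mean of probe sets.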

Other observations

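Probe sets listed under several symbols lay outside the member list. Of 8 such probe sets with an RNU6 symbol, 6 held the values of RNU6-1. Another, named for RNU6-1 and RNU6-6P, read 15.87 and 17.73 on the PRSS8 arrays and 16.49 and 18.37 on the control arrays, or −0.62 in pair 1 and −0.64 in pair 2. The last, named for ANKRD20A9P and RNU6-55P, lay near the bottom of the scale. It read 3.30 and 3.29 with PRSS8 and 3.19 and 3.20 in control, or 0.11 in pair 1 and 0.09 in pair 2.

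Among the brighter snRNAs, U5 copies had the widest gaps between replicate numbers. RNU5E-2P stood 4.05 higher in replicate 2 on the PRSS8 arrays and 5.16 higher on the control arrays, and RNU5E-4P 5.07 and 3.27. RNU5A-1 stood 2.44 and 1.66 higher, while U4 at RNU4-2 stood 0.59 and 0.13 higher. These genes were picked after their values were seen.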
